A study of Rattus norvegicus with 6 samples.

Results

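The genes described here encode hemoglobin chains and proteins of the red blood cell. They were chosen by name, as Hba-a2, Hbb, Hbb-b1, Hbe1, Alas2, Slc4a1, Epb42, Ahsp and Klf1. Of these 9 names, 8 matched a probe on the array, through 11 probes, out of 26903 gene names and 30367 probes in all. The gene names are 15154 symbols and, for probes without a symbol, the array's own identifiers. Shares of all gene names below are over both kinds. Hba-a2 matched no probe through RefSeq identifiers, the only names used for matching, and is not analysed here. The RefSeq identifiers of 3408 probes matched no symbol, so the array may still hold a probe for it. Ovaries were collected on PND 7 from female Wistar rat pups that had received intraperitoneal injections on PNDs 3 and 5. LPS-treated pups received 0.05 mg/kg of lipopolysaccharide from Salmonella enterica serotype enteritidis, an outer membrane component of Gram-negative bacteria, and saline-treated pups received an equivalent volume of saline. Each treatment was measured on 3 single-color arrays, numbered 1 to 3 in the labels, described in the study as biological replicates. Whole litters had been allocated to a treatment. Per the methods, the ovaries came from 5 animals a treatment, out of 2 LPS and 2 saline litters, and which of them supplied each array was not given in the sources used here. The p-values therefore measure the spread between these arrays, and effects of litter and of treatment cannot be told apart.

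Hemoglobin is a tetramer of alpha-like and beta-like globin chains, each holding a heme group that binds oxygen. Globin genes lie in clusters whose members are switched on in turn through embryonic, fetal and adult life. Heme is built in the red cell precursor from glycine and succinyl-CoA, starting with the enzyme encoded by Alas2, while Ahsp holds free alpha chains in a stable form until they pair with beta chains. Slc4a1 (band 3) and Epb42 (protein 4.2) join the red cell membrane to its skeleton, and Klf1 is a zinc finger factor that binds CACCC boxes in beta-globin and other red cell promoters. Circulating red cells of mammals have no nucleus, but young ones (reticulocytes) still carry globin mRNA, so blood in the vessels of an organ contributes these transcripts to its RNA. In these bulk samples the number of red cells and the amount of RNA per red cell cannot be told apart. Some saline arrays also carried transcripts of other tissues, as described below.

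The promoters of the globin genes are shown because the beta-globin copies below are close relatives. Those of the enzyme gene Alas2 and the regulator Klf1 are shown beside them. Slc4a1 and Ahsp had no window among the promoter sequences used here. The sequences are RefSeq windows of the GRCr8 assembly, the 150 bases before each annotated transcription start, read 5′ to 3′ on the gene's strand. Capitals mark the CACCC box, the CCAAT box, the TATA box (TATAAA) and GATA motifs (AGATAA or TGATAA), searched on both strands, so that a motif on the opposite strand appears as its reverse complement.
Hbb-b1 (chr1:167643521-167643670, minus strand): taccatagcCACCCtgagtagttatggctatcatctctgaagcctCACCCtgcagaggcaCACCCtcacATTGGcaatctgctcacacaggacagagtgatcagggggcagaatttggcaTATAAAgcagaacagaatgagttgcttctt
Hbb-bs (chr1:167631631-167631780, minus strand): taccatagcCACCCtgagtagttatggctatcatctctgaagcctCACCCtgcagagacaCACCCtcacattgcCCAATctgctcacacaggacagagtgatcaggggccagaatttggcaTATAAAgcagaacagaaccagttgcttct
Hbb (chr1:167663722-167663871, minus strand): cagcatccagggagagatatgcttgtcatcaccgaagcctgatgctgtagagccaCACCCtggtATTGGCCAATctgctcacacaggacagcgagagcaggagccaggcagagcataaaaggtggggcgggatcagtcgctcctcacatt
Hbe1 (chr1:167696281-167696430, minus strand): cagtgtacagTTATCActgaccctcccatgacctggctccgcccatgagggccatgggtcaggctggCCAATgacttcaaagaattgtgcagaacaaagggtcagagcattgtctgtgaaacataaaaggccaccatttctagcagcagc
Hba-a1 (chr10:15842581-15842730, minus strand): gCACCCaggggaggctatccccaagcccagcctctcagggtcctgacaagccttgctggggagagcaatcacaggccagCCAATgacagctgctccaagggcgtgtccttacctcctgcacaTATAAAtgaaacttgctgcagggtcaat
Alas2 (chrX:22895300-22895449, plus strand): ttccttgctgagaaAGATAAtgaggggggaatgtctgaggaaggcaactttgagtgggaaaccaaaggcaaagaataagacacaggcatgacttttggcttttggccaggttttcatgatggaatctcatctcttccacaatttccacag
Klf1 (chr19:40158652-40158801, minus strand): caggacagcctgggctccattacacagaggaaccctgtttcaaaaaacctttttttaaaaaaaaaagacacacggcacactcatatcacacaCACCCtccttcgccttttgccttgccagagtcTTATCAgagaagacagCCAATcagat
Hbb-b1 and Hbb-bs were identical at 144 of 151 aligned columns (95.4%), whereas Hbb-b1 and Hbb shared 68.1% and Hbb-b1 and Hbe1 shared 51.2%. The window of Hba-a1 was identical to that of Hba-a2, which matched no probe, at 96.0% of columns. CACCC stood 3 times in each of Hbb-b1 and Hbb-bs, the farthest 141 and the nearest 90 bases before the start, and 1 time in Hbb, Hba-a1 and Klf1. It was found in 35.2% of all 33469 promoter windows of this length. TATAAA was found in 8.00% of them and CCAAT in 23.5%. A GATA motif was found in Hbe1, Alas2 and Klf1, and in 9.98% of all windows. The Epb42 window held none of these motifs. These matches describe the letters in the windows only, and their bearing on the values below was not tested.

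Values are the log2 of the background-subtracted signal minus the 75th percentile of the same array, hereafter the scaled log2 signal, and differences are LPS minus saline. Levels of different probes are not compared, because probes differ in how brightly they hybridize. A spot counts as measured where the scanning software called it well above background. The 75th percentile of the signal ranged from 2824 to 5801 on the saline arrays and from 3956 to 6754 on the LPS arrays, between 66.3% and 76.0% of spots were well above background, and 0 spots were saturated on any array. All 7 oocyte markers with a probe (such as Zp3 and Gdf9) and all 6 granulosa markers (such as Amh and Inha) were well above background on all 6 arrays. Saline arrays 2 and 3 stood apart from the other 4 in carrying transcripts of the adrenal gland. The scaled log2 signal of Cyp11b1, the enzyme of the last step of corticosterone synthesis, was 5.62 and 6.05 on these arrays, and -6.55 on saline array 1 and from -7.53 to -6.26 on the LPS arrays. The log2 of the summed signal of 6 adrenal cortex markers was 0.94, 6.94 and 7.48 on saline arrays 1 to 3 and ranged from 1.27 to 2.27 on the LPS arrays. For 6 adrenal medulla markers it was 2.55, 6.38 and 5.77 against a range of 1.62 to 2.43. Saline array 2, and to a lesser degree saline array 3, also carried liver and plasma protein transcripts. The summed signal of Alb, Afp, Apoa1, Ttr and Fgb was -2.37, 4.02 and 0.87 on the saline arrays and between -2.79 and -2.18 on the LPS arrays. On the LPS arrays Alb, Ttr and Fgb were never well above background. The differences of the members measured on all arrays are given with and without saline array 2.

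Of the 8 members, 6 were measured on all 6 arrays (Hbb, Hbb-b1, Ahsp, Alas2, Slc4a1 and Klf1, with 9 probes), and their differences were all negative, as were 46.9% of those of all gene names so measured. In LPS-treated ovaries only Slc4a1 was lower past a 2-fold difference and an unadjusted p under 0.05, the criterion of the study's methods, and several alternatives given with its values below ended that call. This was 1 of 8 members, where 1.03% of all gene names were lower and 0.539% were higher by the same criterion, and 0.902% and 0.0982% of the names measured on all 6 arrays. After Benjamini-Hochberg adjustment over all probes 0 members passed, as did 0% of all gene names, while 3 members had an unadjusted p under 0.05 (Hbb-b1, Alas2 and Slc4a1), against 15.9% of all gene names and 4.06% of those measured on all 6 arrays. For 4 members (Hbb-b1, Ahsp, Alas2 and Slc4a1) every LPS array lay below every saline array, which was the case for 18.2% of all gene names and for 5.88% of those measured on all 6 arrays. With 3 arrays against 3, an exact two-sided permutation test gives 0.1 for such a gene, the smallest p this design allows. The median difference was -0.48 over the 8 members and -0.68 over the 6 measured on all arrays, and over all gene names it was -0.04, or 0.02 over those measured on all arrays. The sizes differed between members. Of the 6, the 3 with the largest differences (Ahsp, Slc4a1 and Alas2) also had the widest spread among the saline arrays.

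**Figure D1:**
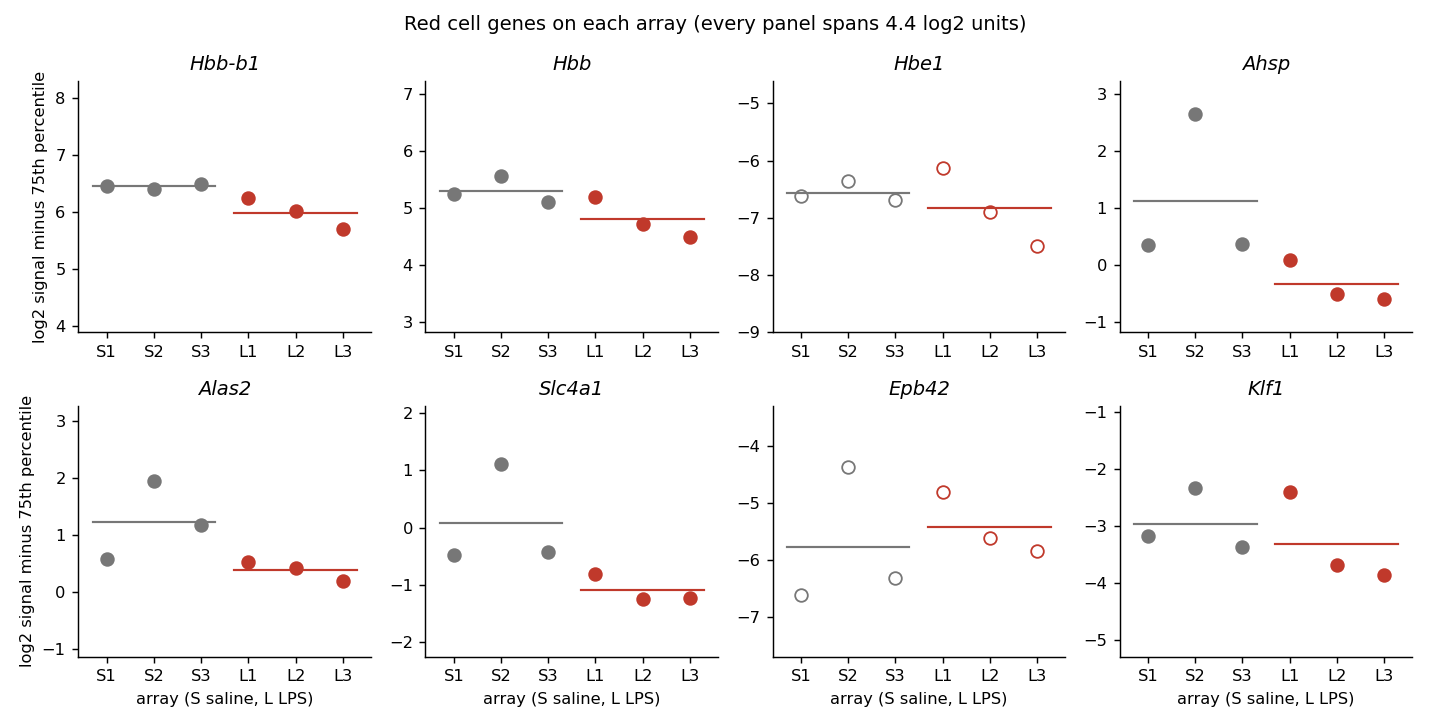
Scaled log2 signal (log2 signal minus the 75th percentile of the array) of the brightest probe of each of the 8 genes on saline arrays 1 to 3 (S1 to S3, gray) and LPS arrays 1 to 3 (L1 to L3, red), with a line at the mean of each treatment. Open circles are spots not well above background, as for Hbe1 and Epb42 on every array, and S2 is the highest point for Ahsp (2.63), Slc4a1 (1.12), Alas2 (1.94), Hbb (5.55), and Klf1 (-2.33).

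Hbb-b1, which encodes an adult beta-globin chain, had processed signals from 205170 to 407110 over its probes and the arrays. On the scaled log2 scale its brightest probe gave 6.46, 6.41 and 6.48 on saline arrays 1 to 3 and 6.24, 6.02 and 5.71 on LPS arrays 1 to 3. The saline arrays lay within a narrow range and above every LPS array. The mean was 6.45 ± 0.04 (SD, n = 3) for saline and 5.99 ± 0.27 (SD, n = 3) for LPS, a difference of -0.46 (SE 0.19; limma unadjusted p = 0.0489, adjusted p = 0.301), or 1.38-fold lower. The second probe of Hbb-b1 gave a difference of -0.48 (SE 0.20), or -0.47 without saline array 2, and did not overlap between treatments either. Saline array 2 did not stand apart for Hbb-b1, and without it the difference was -0.48.

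Hbb, another adult beta-globin gene, had scaled log2 signals of 5.25, 5.55 and 5.10 on the saline arrays and 5.19, 4.72 and 4.50 on the LPS arrays. LPS array 1 lay among the saline arrays, so the treatments overlapped. The difference was -0.50 (SE 0.24; limma adjusted p = 0.357), and -0.38 without saline array 2. Its dimmer probe gave 3.99, 5.24 and 4.41 for saline and 4.33, 3.98 and 4.01 for LPS, a difference of -0.44 (SE 0.33), with saline array 2 the highest. That difference was -0.10 without saline array 2, and without saline arrays 2 and 3 it was 0.11, of the opposite sign. Hbe1, an embryonic epsilon-like globin gene, was measured above background on 0 of the 6 arrays, with scaled log2 signals from -7.49 to -6.12, and no fold is given for it.

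The globin differences depended on the scaling of the arrays. Before scaling, the log2 signal of the brightest Hbb-b1 probe was 17.68, 18.58 and 18.13 on the saline arrays and 17.97, 18.03 and 18.13 on the LPS arrays, and the treatments overlapped. The difference without scaling was -0.08 for Hbb-b1 and -0.13 for Hbb, where the median of all gene names shifted to 0.33. Scaling shifts the differences of all genes by the same amount. Relative to the median of all gene names, Hbb-b1 was therefore at -0.42 and Hbb at -0.46 both with and without it.

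**Figure D2:**
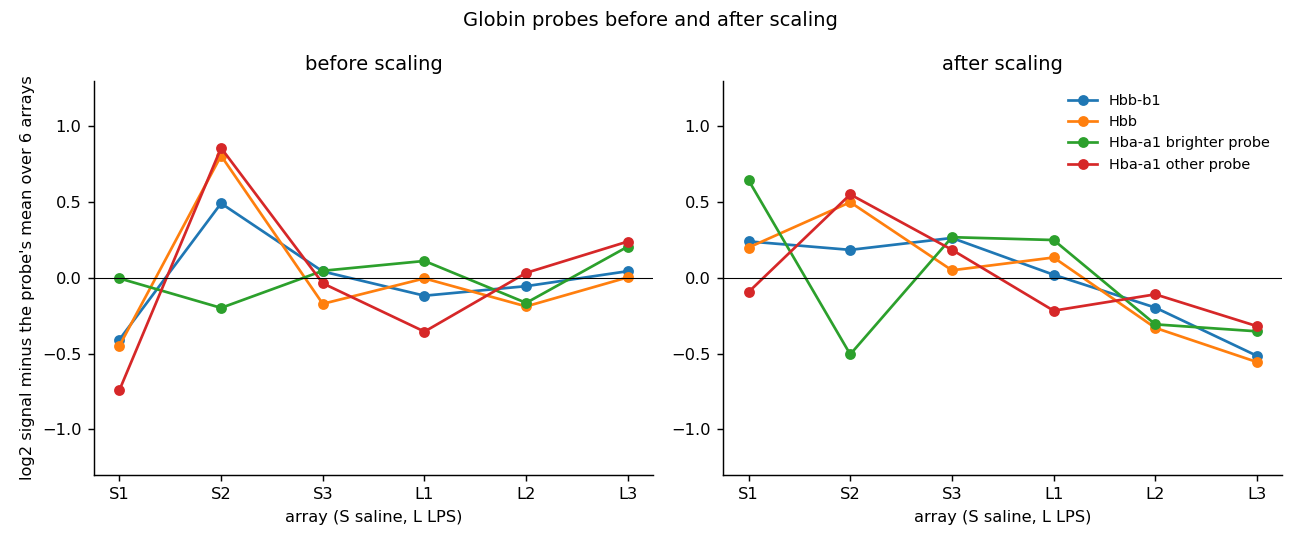
Log2 signal of 4 globin probes on each array (S saline, L LPS), minus the probe's own mean over the 6 arrays, before (left) and after (right) the 75th percentile of each array was subtracted. Hbb-b1 overlapped between treatments before scaling and not after it, and after scaling the 2 Hba-a1 probes lay on opposite sides of their means on S2.

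Of the other globin genes, 9 of 14 listed had a probe, 7 were measured on all 6 arrays and 0 passed the criterion in either direction. The brightest were Hba-a1, Hbe2 and Hbb-bs. Hbb-bs, the close relative of Hbb-b1 in the promoter lines above, gave 4.57, 5.35 and 4.72 on the saline arrays and 4.52, 3.97 and 3.94 on the LPS arrays, a difference of -0.74 (SE 0.28; limma adjusted p = 0.283). Hbe2, which is named as an epsilon-like gene, gave 4.93, 5.28 and 4.84 on the saline arrays and 4.64, 4.30 and 4.12 on the LPS arrays, a difference of -0.66 (SE 0.22; limma adjusted p = 0.271). For both genes every LPS array was below every saline array, and saline array 2 was the highest. Without saline array 2 the differences were -0.50 for Hbb-bs and -0.53 for Hbe2. Beta-like globin transcripts are alike, and whether their probes share signal was not tested.

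The alpha chain was represented by Hba-a1, whose probes disagreed. The brighter probe gave 6.82, 5.67 and 6.45 on the saline arrays and 6.43, 5.87 and 5.83 on the LPS arrays, with saline array 2 the lowest of all 6 and a difference of -0.27 (SE 0.34). Its log2 signal before scaling stayed between 17.85 and 18.25, while the 75th percentile of the arrays ran from 11.22 to 12.42 on the same scale. The other probe gave 5.47, 6.12 and 5.75 for saline and 5.35, 5.46 and 5.25 for LPS, with saline array 2 the highest, no overlap and a difference of -0.43 (SE 0.21). The alpha-globin level on saline array 2 thus depended on the probe. Whether these probes also take up transcripts of Hba-a2 was not tested. Hba-a3, named after its values had been seen, had a difference of -0.10 (SE 0.40), with overlapping treatments.

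Ahsp, the chaperone of free alpha-globin, had the largest difference of the members and the widest spread within a treatment. It gave 0.34, 2.63 and 0.37 on the saline arrays and 0.08, -0.51 and -0.60 on the LPS arrays. Every LPS array was below every saline array, but LPS array 1 was close to saline arrays 1 and 3, and saline array 2 stood far above all others. The mean was 1.11 ± 1.32 (SD, n = 3) for saline and -0.34 ± 0.37 (SD, n = 3) for LPS, a difference of -1.45 (SE 0.63; limma unadjusted p = 0.056, adjusted p = 0.313), or 2.74-fold lower. The second Ahsp probe gave -0.23, 2.23 and -0.05 for saline and -0.37, -0.93 and -1.09 for LPS, again a difference of -1.45. The differences of the brighter and the second probe were -0.69 and -0.66 without saline array 2.

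Alas2, the first and rate-limiting enzyme of heme synthesis in red cell precursors, gave 0.59, 1.94 and 1.18 on the saline arrays and 0.52, 0.43 and 0.20 on the LPS arrays. The treatments did not overlap, with saline array 1 and LPS array 1 nearly level. The difference was -0.85 (SE 0.35; limma unadjusted p = 0.0449, adjusted p = 0.294), or 1.81-fold lower. It was -0.50 without saline array 2 and -0.20 without saline arrays 2 and 3, so that it was small against saline array 1 alone.

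Of the genes of heme synthesis, 13 of 14 listed had a probe, 12 were measured on all 6 arrays and 0 passed the criterion. Urod, a cytosolic enzyme midway through the pathway, had a difference of -0.18 (SE 0.22). Alad, the enzyme after the Alas step, gave 2.73, 3.46 and 3.13 for saline and 2.47, 2.59 and 2.54 for LPS, a difference of -0.57 (SE 0.22; limma adjusted p = 0.286) with no overlap. Alas1, the form of the first enzyme in other tissues, gave 2.78, 4.48 and 4.17 for saline and 2.55, 3.30 and 2.66 for LPS, a difference of -0.97 (SE 0.47) with overlap. The differences were -0.40 for Alad and -0.64 for Alas1 without saline array 2. For both the saline arrays with adrenal transcripts were the highest of the 6, and the part of those transcripts in the differences was not tested.

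Slc4a1, the anion exchanger band 3 of the red cell membrane, gave -0.47, 1.12 and -0.43 on the saline arrays and -0.81, -1.25 and -1.24 on the LPS arrays. Saline array 2 was again far above the others, and the remaining saline arrays were close to each other and above every LPS array. The mean was 0.07 ± 0.91 (SD, n = 3) for saline and -1.098 ± 0.25 (SD, n = 3) for LPS, a difference of -1.17 (SE 0.45; limma unadjusted p = 0.0359, adjusted p = 0.283), or 2.25-fold lower. Without saline array 2 the difference was -0.65 (limma unadjusted p = 0.0318), under 2-fold, and without saline arrays 2 and 3 it was -0.63. Leaving out LPS array 2 or 3 left it past 2-fold with unadjusted p-values of 0.0904 and 0.0853. Slc4a1 also missed the criterion with the methods' analysis of variance in place of limma, without scaling (-0.79) and within the slide row of the saline arrays (-0.88), with limma unadjusted p-values of 0.156 and 0.216 for the latter cases. Epb42, the protein 4.2 that binds band 3, was likewise above background on 0 of the 6 arrays, with values of -6.61, -4.37 and -6.31 for saline and -4.81, -5.61 and -5.84 for LPS, and no fold is given for it.

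Of the red cell membrane and skeleton genes, 14 of 22 listed had a probe, 9 were measured on all 6 arrays and 0 passed the criterion. The brightest were Aqp1, Slc2a1 and Tspan33. The water channel Aqp1, which endothelium also expresses, gave 1.46, 2.41 and 2.08 for saline and from 0.71 to 1.48 for LPS, a difference of -0.89 (SE 0.31; limma adjusted p = 0.273) with overlap. The glucose transporter Slc2a1 had a difference of 0.19 (SE 0.21) and Tspan33 of 0.25 (SE 0.38), and their treatments overlapped. Several genes of this list that are restricted to red cells were near background, and they were singled out after their values had been seen. Rhag, the Rh-associated glycoprotein, was well above background on saline array 2 alone, at -3.45. Kel, the Kell antigen, was also well above background there alone, at -3.33, and its values overlapped between treatments. On every other array, saline or LPS, both genes were not well above background, and no fold is given. Of the 14 genes of the list, saline array 2 was the highest array for 7 and the lowest for 5, including Gypc and Xk.

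Klf1, the erythroid Krüppel-like factor, gave -3.18, -2.33 and -3.38 on the saline arrays and -2.40, -3.68 and -3.86 on the LPS arrays. LPS array 1 was level with saline array 2, and the treatments overlapped. The difference was -0.35 (SE 0.46; limma adjusted p = 0.864), and -0.04 without saline array 2. Of the other erythroid transcription factors, 11 of 14 listed had a probe, 8 were measured on all 6 arrays and 0 passed the criterion, with a median difference of 0.01. Of its brightest genes, Zbtb7a, a repressor of fetal globin genes, had a difference of -0.35 (SE 0.18) with no overlap, Ldb1, an adaptor that links distant enhancers to promoters, one of 0.21 (SE 0.22), and Lyl1 one of -0.05 (SE 0.21). Gata1, the factor that defines the lineage and also named after its values had been seen, was above background on 0 arrays.

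**Figure D3:**
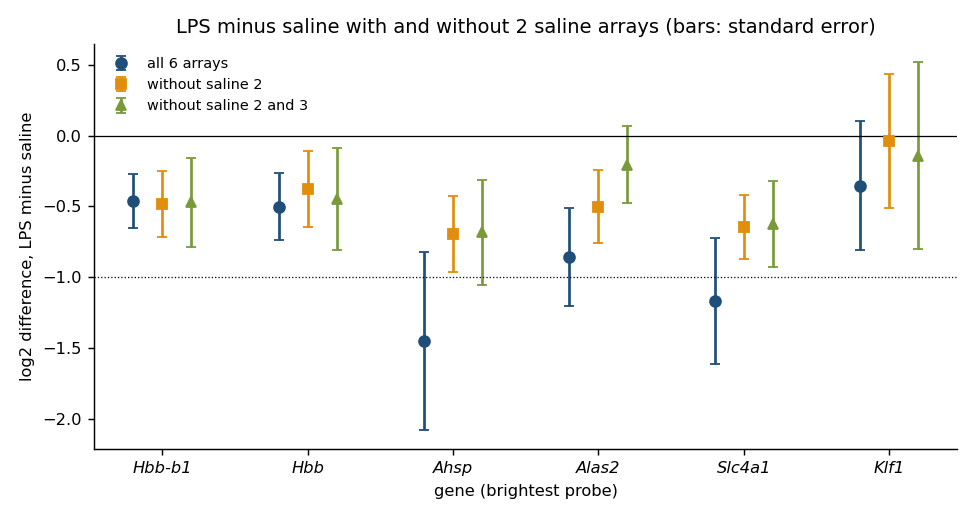
LPS minus saline difference on the log2 scale for the brightest probe of the 6 genes measured on all arrays, with its standard error, over all 6 arrays (circles), without saline array 2 (squares) and without saline arrays 2 and 3 (triangles, 1 saline array left). The dotted line is a 2-fold lower signal. Hbb-b1 stayed near -0.46, while Ahsp went from -1.45 to -0.69 and Slc4a1 from -1.17 to -0.65 without saline array 2.

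Saline array 2 was the highest of the 6 arrays for 5 of the 6 members measured on all arrays, all but Hbb-b1, and so it was for 17.1% of gene names so measured and for 26.2% of all gene names. It exceeded the mean of saline arrays 1 and 3 by at least 2-fold for 3 of the 6 members measured on all arrays, Ahsp, Slc4a1 and Alas2, against 1.92% of gene names so measured and 2.4% of all gene names. The same held for 13 of 93 genes of the 8 other red cell lists, and for 4 of the 71 measured on all arrays. The members' excess on the log2 scale was 2.28 for Ahsp, 1.57 for Slc4a1, 1.06 for Alas2, 0.94 for Klf1, 0.37 for the brightest and 1.04 for the dimmer Hbb probe, and -0.07 and 0.04 for the probes of Hbb-b1. The beta-globin genes thus ranged from no excess to one near that of Alas2, depending on the gene and the probe. Saline array 3 had adrenal signals like those of saline array 2. Its Ahsp (0.37), Slc4a1 (-0.43) and Hbb-b1 (6.48) were level with those of saline array 1 (0.34, -0.47 and 6.46). Alas2 (1.18) and the dimmer Hbb probe (4.41) were higher on saline array 3 than on saline array 1 (0.59 and 3.99). The brightest Hbb probe (5.10) and Klf1 (-3.38) were lower on it than on saline array 1 (5.25 and -3.18). Of the liver and plasma markers all 5 were highest on saline array 2, where Alb was at 2.06 and Afp at 2.81, and saline array 3 was next, at -1.33 and -0.16. The part of adrenal and liver transcripts in the red cell values was not tested. Without saline array 2 the median difference over the 6 members measured on all arrays was -0.49, against -0.02 for all gene names measured on all arrays. In that fit no member was lower past the criterion.

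**Figure D4:**
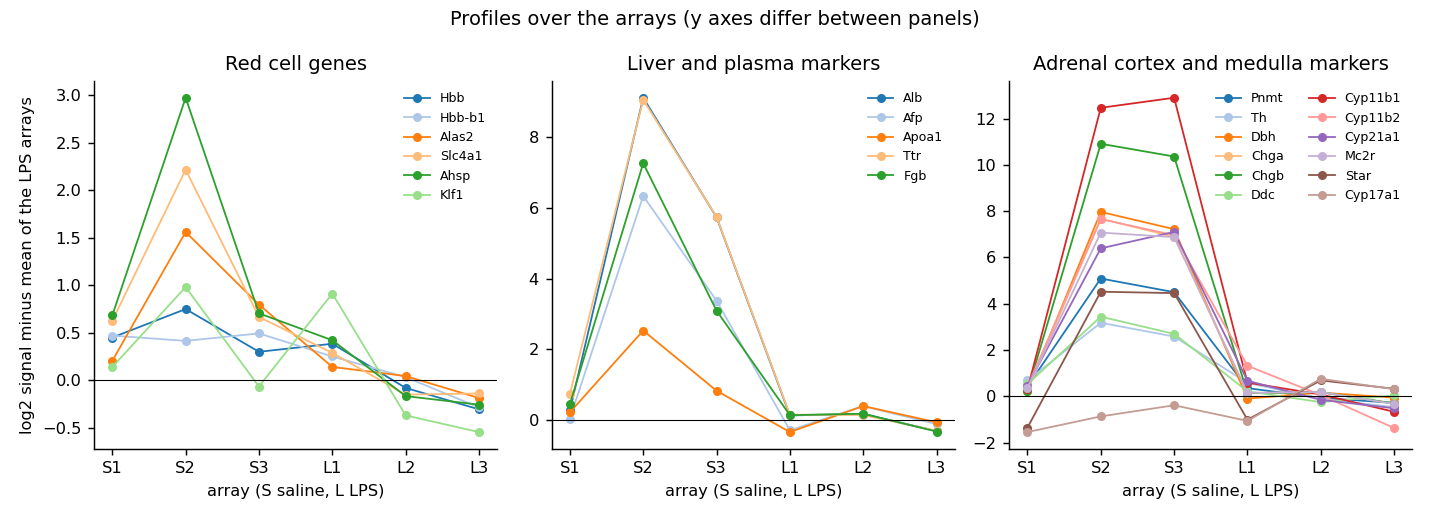
Scaled log2 signal of each gene minus its mean over the 3 LPS arrays, on saline (S) and LPS (L) arrays, for the 6 red cell genes measured on all arrays (left), 5 liver and plasma markers (middle) and 12 adrenal cortex and medulla markers (right); the y axes differ. The liver markers and all red cell genes except Hbb-b1 were highest on S2, and all adrenal markers except Cyp17a1 were high on both S2 and S3.

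The LPS arrays were not alike either. LPS array 1 was the highest of the 3 for each of the 6 members measured on all arrays, from 0.10 above LPS array 2 for Alas2 to 1.28 above it for Klf1. LPS array 1 lay in the same row of the slide as the saline arrays, and LPS arrays 2 and 3 lay in the other row, so a comparison within a row rests on LPS array 1 against the 3 saline arrays. Within that row the difference was -1.03 for Ahsp, -0.88 for Slc4a1, -0.71 for Alas2, -0.21 for Hbb-b1, -0.12 for Hbb and 0.56 for Klf1. None of these members passed the criterion there, and Klf1 had the opposite sign. The summed signals of markers of the ovary's own cells were lowest on LPS array 1. For the granulosa markers the log2 of the sum was 4.56 there, 6.37 and 5.87 on LPS arrays 2 and 3, and from 5.32 to 6.03 on the saline arrays. For the oocyte markers it was 4.06, 5.55 and 5.25 on LPS arrays 1 to 3, and from 4.32 to 5.07 on the saline arrays. Single markers could differ, as Kitlg on LPS array 1 (1.19) was above every saline array. The part of these marker shifts in the members' values was not tested.

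The 8 other lists of red cell biology were also counted together. Of their 117 genes 93 had a probe and 71 were measured on all 6 arrays. At the criterion 1 was lower and 0 were higher, where 1.03% and 0.539% of all gene names were. A negative difference was found for 57 (61.3% against 55.8% of all gene names). The groups did not overlap for 10 genes that were lower and 2 that were higher, or 10.8% and 2.15%, against 18.2% and 4.67% of all gene names. Of the 71 measured on all arrays, 7 were lower and 2 higher without overlap, or 9.86% and 2.82%, against 5.88% and 5.3% of the gene names so measured. The median difference over the 93 genes was -0.11.

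The gene past the criterion was Hpx, which encodes hemopexin, the plasma protein that binds free heme and is made mainly in the liver. It gave -4.46, -0.35 and -1.38 on the saline arrays and -4.52, -5.83 and -5.50 on the LPS arrays, a difference of -3.22 (SE 1.01; limma adjusted p = 0.271). Saline arrays 2 and 3, which carried the adrenal, liver and plasma transcripts, were far above the other 4. Hpx was well above background on 2 saline arrays and 1 LPS array. Without saline array 2 the difference was -2.36, and without saline arrays 2 and 3 it was -0.83. The part of adrenal and liver transcripts in the Hpx values was not tested. The other genes of hemoglobin and heme clearance, 9 of 11 with a probe in all, did not pass. Of the brightest, Blvrb, a biliverdin reductase, had a difference of -0.24 (SE 0.16) with no overlap, Lrp1, the receptor for heme bound to hemopexin, one of -0.10 (SE 0.32), and Slc48a1, a heme transporter, one of 0.00 (SE 0.17).

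Iron uptake genes had a median difference of -0.10, and of 11 with a probe 0 passed the criterion. The ferritin chains Fth1 and Ftl1 differed by -0.16 (SE 0.18) and -0.11 (SE 0.22), and Aco1, whose protein senses iron, by -0.10 (SE 0.16). All 3 overlapped between treatments. Genes of erythropoietin and its receptor pathway had a median difference of 0.08, with 0 of 10 past the criterion. Kitlg, the ligand of the stem cell factor receptor, which granulosa cells also make, gave 0.54, 0.76 and 0.97 for saline and 1.19, 1.41 and 1.37 for LPS, a difference of 0.57 (SE 0.18; limma adjusted p = 0.271) with every LPS array above every saline array. A dimmer Kitlg probe, above background on 5 arrays, gave -0.04 (SE 0.33), and another was above background on 0. Cish and Stat5a, which act below the receptor, differed by 0.25 (SE 0.20) and -0.08 (SE 0.20). Red cell enzymes and late maturation genes had a median difference of -0.22, with 0 of 17 past the criterion. Prdx2, an abundant red cell antioxidant, gave 4.24, 4.53 and 4.27 for saline and 4.02, 4.09 and 4.02 for LPS, a difference of -0.30 (SE 0.16; limma adjusted p = 0.438) with no overlap. Bnip3l, which directs the removal of mitochondria from maturing red cells, differed by -0.20 (SE 0.15) with no overlap, and Gpx1 by -0.32 (SE 0.19) with overlap. Gypc, a glycophorin of the membrane list, was higher on every LPS array than on any saline array, by 0.48 (SE 0.17; limma adjusted p = 0.276), and was named after its values had been seen.

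Other blood and vessel markers were counted by the same criterion, which 1.03% of all gene names passed as lower and 0.539% as higher. Of the neutrophil markers 0 of 7 passed, of the platelet markers 0 of 5 and of the endothelium markers 0 of 6, with median differences of -0.18, -0.25 and -0.14. Only 2 of the neutrophil markers were measured on all 6 arrays, and 3 on 0 arrays. Saline array 2 was at least 2-fold above the mean of saline arrays 1 and 3 for 2 neutrophil, 1 platelet and 1 endothelium marker. Among all gene names this share was 2.4%. Of the markers measured on all 6 arrays it held for 1 neutrophil, 1 platelet and 0 endothelium markers, against 1.92% of gene names so measured. Of 5 macrophage markers 1 was higher past the criterion, Mrc1, the mannose receptor, by 1.19 (limma unadjusted p = 0.0220; named after its values had been seen). Mrc1 was well above background on 5 of the 6 arrays. The median difference over the macrophage list was 0.52, and 2 of its 5 markers had a negative difference.

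The mean profile of the 6 members measured on all arrays, each centered on its own mean, was 0.03, 1.08 and 0.08 on the saline arrays and 0.00, -0.51 and -0.69 on the LPS arrays, a span of 1.77. Among 10006 named genes measured on all arrays that are not members, the 5 with the smallest root mean square difference from this profile were Gstp3 (0.099), MAST1 (0.108), Hbb-bs (0.122), Pon3 (0.130) and Gng3 (0.137). The closest, Gstp3, a glutathione S-transferase, gave -2.55, -1.65 and -2.55 for saline and -2.49, -3.01 and -3.12 for LPS. Hbb-bs was the only globin gene among these 5. Of the members themselves, Alas2 (0.205) and Hbb and Slc4a1 (both 0.271) were nearest to the mean profile and Ahsp (0.532) was the farthest of the 6, with a centered value of 2.25 on saline array 2.

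The processing and the arrays used set the sizes more than the signs. Under 19 alternatives, of scaling, background correction, test, probe and arrays, the difference ranged from -0.59 to -0.08 for Hbb-b1, from -0.69 to -0.12 for Hbb and from -1.84 to -0.68 for Ahsp. It ranged from -1.18 to -0.20 for Alas2, from -1.44 to -0.63 for Slc4a1 and from -0.81 to 0.56 for Klf1. The alternatives of the test, the replicate block and dim probes left out used the same values, so each gene's difference stayed the same there. For Ahsp and Slc4a1 the smallest differences were those without saline arrays 2 and 3, and for Hbb-b1 that without scaling.

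**Figure D5:**
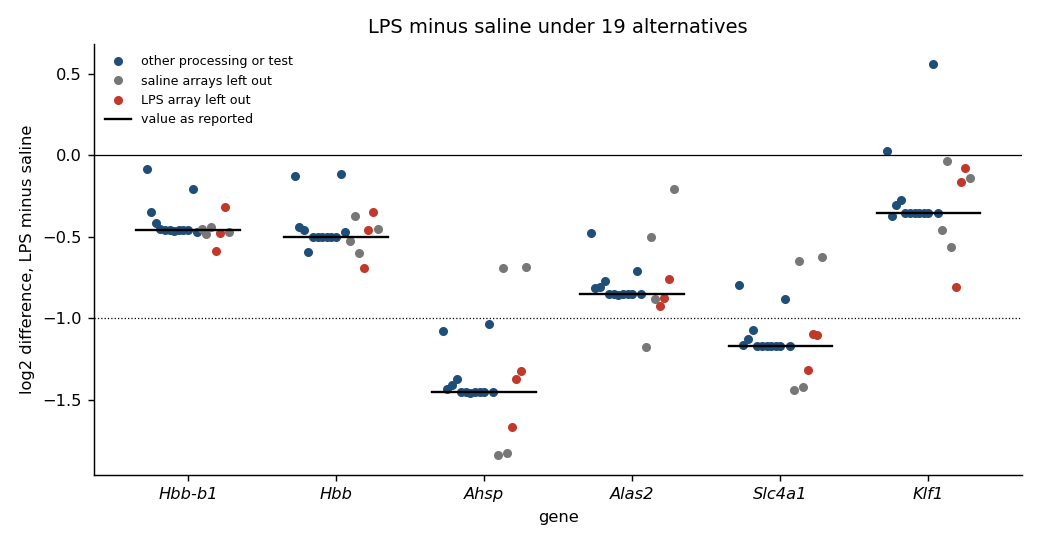
LPS minus saline difference on the log2 scale for the 6 genes measured on all arrays, under each of 19 alternatives (points, by kind) and as reported (black line); the dotted line is a 2-fold lower signal. All points for Hbb-b1, Hbb, Ahsp, Alas2 and Slc4a1 lie below 0, while 2 of the 19 for Klf1 lie above it. Points for the test, the replicate block and dim probes left out fall on the black line by construction.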

How the data were processed

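Ovarian RNA of PND 7 rats was measured on 6 Agilent SurePrint rat arrays, 3 per treatment, grouped by the treatment and number in the labels. RNA was amplified and, per the methods, Cy3-labeled. The authors deposited each array's spot intensity output of Agilent Feature Extraction (10.5.1.1) and a table of the series that equals the processed signal within 0.497%. The lumi package is also named in the submitters' processing notes, without a role. The log2 values were computed here from the deposited intensities. Spots flagged as non-uniform or population outliers (189 to 1015 per array) were dropped, log2 signals of a probe's spots averaged, and the 75th percentile of each array subtracted. A linear model (lmFit and eBayes of limma 3.58.1, R 4.3.3) was fitted over all probes, without covariates, with Benjamini-Hochberg adjustment, after a test of the procedure on simulated data. Probes were named through RefSeq accessions with a table of GRCr8 (17998 probes, 15154 symbols), and a gene is represented by its brightest probe.

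The named genes are every member with all its probes, the 3 brightest genes and those past the criterion in each list of red cell genes, and the 5 genes with the profile closest to the members. Rhag, Kel, Xk, Gypc, Hba-a3, Gata1, Mrc1, Tmod1, Hp and Slc14a1 were named after their values had been seen. The members and lists were chosen with earlier results of these data known. The number of arrays limits the precision. For arrays 1, 2 and 3 the deviations from the treatment means correlated between the LPS and the saline array of that number (0.298, 0.215 and 0.254 over probes), which is the sole basis for pairing them. The 19 alternatives covered scaling, background correction, the authors' table, dim and flagged spots, the test, the replicate number and slide row as blocks, the probe rule and arrays left out.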

Additional observations from a re-analysis of the deposited data

How the results depend on the processing

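The median difference over the members stayed negative under all 19 alternatives, from -0.75 to -0.10, and from -0.75 to -0.33 as each single array was dropped. Hbb-b1, Hbb, Ahsp, Alas2 and Slc4a1 kept their sign under all 19. Those of the test, the replicate block and dim probes left out could not change a gene's difference. Klf1 was at 0.023 without scaling between arrays, where the median of all genes was 0.33, and at 0.56 with slide row blocked. Slc4a1 missed the 2-fold and unadjusted p criterion under 7 alternatives, with values from -1.44 to -0.63 over all 19, and Ahsp met it under 4. The count of members past the criterion was 0 without scaling, with the methods' analysis of variance and with slide row blocked. It was 2 with normexp background correction or limma's trend and robust setting. With each array left out it ran from 0 to 3. It was 3 without saline array 1, 2 without saline array 3, and 0 without LPS array 2 or 3. Without saline array 2 it was 1, as reported, but that gene was Epb42, above background on 0 arrays, and not Slc4a1. The count over the 8 lists of other red cell genes, 1 as reported, was 3 without scaling (2 of them higher) and with normexp. It was 0 with dim probes left out and with the methods' analysis of variance. It was 2 with the trend and robust setting, and 5 with slide row blocked, all 5 higher. With each array left out it ran from 1 to 6, at 6 without saline array 1, 3 without LPS array 1, and 2 without saline array 3 or LPS array 2. With the replicate number as a block, pairing the arrays, 4 of these genes passed (Tmod1, Hp and Hpx lower, Slc14a1 higher), and the block changed no call of a member. The lone saline array left without saline arrays 2 and 3 was assumed to vary like the LPS arrays. Without saline array 1 the saline arrays left were 2 and 3, which carried the adrenal and liver transcripts. Shares of all gene names past the criterion were taken for the reported fit only. Whether the counts under the alternatives differ from such shares was not tested.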
